A study of Medicago truncatula with 6 samples.

Results

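The subject is the set of Gypsy and other non-Copia long terminal repeat (LTR) retrotransposon fragments among the features of a small RNA count table from roots of the legume Medicago truncatula. A fragment belonged to the set when its ID named an LTR retrotransposon, was not of the non-LTR or TRIM kind, and did not carry the Copia prefix RLC. By this rule 45975 of 400216 features were members. Of these, 23775 carried the prefix RLG, which marks the Gypsy superfamily in the usual classification of plant transposons, and 22200 carried RLX, which marks LTR elements not placed in a superfamily. The table also held 19597 Copia fragments and 9158 TRIM fragments, and both serve here only as comparisons.

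LTR retrotransposons copy themselves through an RNA intermediate that is reverse transcribed and inserted elsewhere in the genome. In Gypsy elements the integrase domain follows the reverse transcriptase domain in the pol gene, whereas in Copia elements it precedes it, and Gypsy elements of plants are often concentrated near centromeres. Plant genomes keep such elements silent with small interfering RNAs: the shorter kinds act on transposon RNA after transcription, and the longer kind directs DNA methylation. The Superkiller (SKI) complex, of which SKI3 is a scaffold subunit, feeds RNA into the cytoplasmic exosome for decay, and in Arabidopsis it clears RNA pieces left after small RNA-guided cleavage.

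The tested roots carried RNAi against SKI3, and the control roots carried RNAi against GUS, a bacterial reporter gene often used as an RNAi control. Both groups were labelled wild type in genotype, mock in treatment and root in tissue, and each had 3 libraries. The labels give neither the promoter that drives the RNAi nor an age, and nothing says whether the libraries came from separate cultures or plants, so p-values measure the spread between these libraries, which may be technical. The study concerns the role of SKI3 in microRNA-guided cleavage and nodulation, and the comparison made here asks which small RNAs differ when SKI3 is targeted and nothing else is applied. Gene IDs could not be paired with names, so the RNAi against SKI3 was not checked, and neither were root markers.

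Tables held 2851473, 2324061 and 2612141 counts in SKI3 RNAi replicates 1, 2 and 3, and 3974092, 2168297 and 3486290 counts in GUS RNAi replicates 1, 2 and 3. Counts divided by the total of their own table are given as CPM, which is counts per 1000000. A floor of 3 counts corresponded to between 0.755 and 1.38 CPM. In whole roots, fewer cells of a type and less small RNA per cell cannot be told apart. Fragment lengths are not part of the IDs, so every level below is per fragment or per family and not per base, and differences in level between families may hold differences in length.

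An ID names a family, 1 reference element with its coordinates, and the fragment by its chromosome and a running number. The members came from 1834 families and 2581 reference elements, whose spans ran from 1792 to 24976 bp. A family had a median of 14 fragments, and the largest family had 506. Only 21.3% of the fragments lay on the chromosome of their reference element. IDs further split the families into those named plainly and those named singleton, which had 1 reference element each. RLG_family fragments made up 24.6% of members in 718 families, and RLG_singleton_family fragments made up 27.2% in 478 families. RLX_family fragments made up 17.8% in 163 families, and RLX_singleton_family fragments made up 30.5% in 475 families.

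Small RNA was spread thinly over the set. Of 45975 members, 35304 (76.8%) had a count in at least 1 library, 12756 had a count in all 6, and 10671 had none. The median fragment had a summed count of 4 over the 6 libraries and a mean of 0.236 CPM, and the highest had a mean of 128 CPM. At the same time 1850 fragments, which were 4.02% of the set, held 50% of its CPM. The filter on low counts kept 3968 members (8.63%), and these held between 62.9% and 67.8% of the counts of the set in a library. Of the members with a count, 20770 shared all 6 values with another member. Among the tested members, 175 (4.41%) shared theirs with another tested feature of any class. With a median summed count of 4, profiles can be equal by coincidence, so the 20770 do not by themselves show dependence. Whether members depend on each other was not tested.

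The summed level of the whole set was close in both groups. The SKI3 RNAi libraries held 59950, 64488 and 61180 CPM in these fragments, against 60259, 64684 and 59191 CPM in the GUS RNAi libraries. The means were 61873 ± 2347 CPM with SKI3 RNAi and 61378 ± 2912 CPM with GUS RNAi (SD, n = 3 each), a log2 ratio of 0.01 with a two-sided exact permutation p of 0.8. With 3 libraries against 3 this test cannot go below 0.1. The groups overlapped, and the sign of this ratio depended on the scaling, since with TMM-scaled library sizes it was -0.08 (exact permutation p = 0.1).

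Gypsy fragments held more small RNA than the unassigned ones. RLG fragments summed to 36177, 38406 and 38002 CPM with SKI3 RNAi, against 37580, 40187 and 37594 CPM with GUS RNAi. RLX fragments summed to 23773, 26083 and 23178 CPM with SKI3 RNAi, against 22679, 24496 and 21598 CPM with GUS RNAi. A mean RLG fragment had 1.598 CPM and a mean RLX fragment 1.06 CPM. With scaling by total counts neither prefix differed between the groups beyond the spread of the libraries: the log2 ratio was -0.04 for RLG (exact permutation p = 0.6, adjusted over 2 prefixes 0.6) and 0.09 for RLX (exact permutation p = 0.4, adjusted 0.6), and the sign for RLX turned to -0.01 with TMM scaling. For RLG the choice of total mattered more: its log2 ratio was -0.13 with TMM scaling and -0.12 without the 10 most counted features, each at an exact permutation p of 0.1, the smallest this design allows (adjusted over 2 prefixes 0.2).

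Set against the other LTR retrotransposons of the same library, the members kept a steady proportion. The ratio of their counts to those of Copia fragments was 2.07, 2.15 and 2.19 with SKI3 RNAi and 2.13, 2.15 and 2.23 with GUS RNAi. The difference of the mean log2 ratios was -0.02 (exact permutation p = 0.5, adjusted over 2 ratios 0.7). Against TRIM fragments, which are short LTR elements without coding capacity, the ratio was 2.55, 2.82 and 2.67 with SKI3 RNAi and 2.49, 2.83 and 2.91 with GUS RNAi (exact permutation p = 0.7, adjusted 0.7). A mean member had 1.3404 CPM, close to the 1.46 CPM of a mean Copia fragment and below the 2.49 CPM of a mean TRIM fragment.

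The division of counts between the 4 kinds of ID separated the libraries of the groups. RLG_family fragments took 37.5%, 36.3% and 38.7% of the members' counts with SKI3 RNAi, against 40.1%, 39.6% and 40.8% with GUS RNAi. All 3 SKI3 RNAi libraries lay below all 3 GUS RNAi libraries, with means of 37.5 ± 1.22% and 40.2 ± 0.616% (SD, n = 3 each) and an exact permutation p of 0.1, the smallest this design allows (adjusted over 4 kinds 0.133). RLX_singleton_family fragments took 24.1%, 24.6% and 22.6% with SKI3 RNAi, against 22.2%, 22.2% and 21.5% with GUS RNAi. Here all 3 SKI3 RNAi libraries lay above, by 1.79 percentage points in the means (exact permutation p = 0.1, adjusted 0.133). RLG_singleton_family fragments took 22.9%, 23.2% and 23.4% with SKI3 RNAi and 22.3%, 22.5% and 22.7% with GUS RNAi, a difference of 0.68 points without overlap (exact permutation p = 0.1, adjusted 0.133). RLX_family fragments took 15.6%, 15.9% and 15.3% with SKI3 RNAi and 15.5%, 15.6% and 15.02% with GUS RNAi, and the groups overlapped. Shares of 1 total are tied to each other, so these 4 comparisons are not independent, and the kinds of ID were singled out after earlier results were known.

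**Figure D1:**
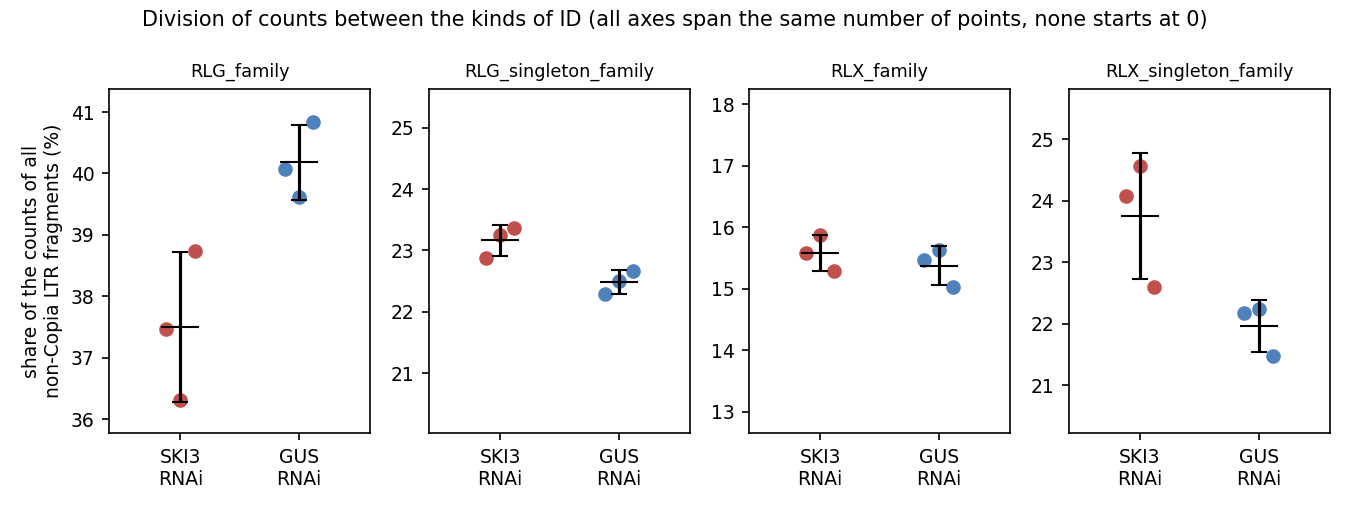
Share of the members' counts (y axis, percent) held by each of 4 kinds of ID, with 1 point per library, SKI3 RNAi in red and GUS RNAi in blue, and the mean with its SD (n = 3) in black. The RLG_family share sits between 36.3% and 38.7% with SKI3 RNAi and between 39.6% and 40.8% with GUS RNAi, and the RLX_family shares overlap.

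RLG_family fragments were also the most abundant per fragment, at a mean of 2.12 CPM over all libraries, against 1.13 CPM for RLG_singleton_family, 1.17 CPM for RLX_family and 1.00 CPM for RLX_singleton_family. In CPM the RLG_family fragments summed to 22461, 23414 and 23704 with SKI3 RNAi, below the 24151, 25629 and 24174 with GUS RNAi. The 3 other kinds overlapped between the groups in CPM. So without the division by the members' own total the lower RLG_family level stood without overlap, and the higher levels of both singleton kinds did not.

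No single fragment passed an adjusted p of 0.05 under the quasi-likelihood test of edgeR, adjusted by Benjamini-Hochberg over all 48283 features tested, where the background was 0%. The smallest adjusted p of a member was 0.744, and DESeq2 also called 0 members. At an unadjusted p under 0.05, 353 of 3968 tested members (8.90%) were called, against 6.58% of all features. They divided unevenly: 104 members (2.62%) were higher with SKI3 RNAi, where the background was 3.57%, and 249 (6.28%) were lower, where the background was 3.01%. DESeq2 gave 24 higher and 127 lower of 3968, and its share over all features is not given here. Without the filter on low counts, edgeR called 38 of 35304 members with a count at an adjusted p under 0.05, of which 25 were higher and 13 lower, where the background was 0.109%.

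The same tilt appeared in 2 measures that need no threshold on p. The log2 fold change, taken as SKI3 RNAi over GUS RNAi throughout, was below 0 in 54.7% of tested members, against 48.1% of all features, and its median was -0.05 in members and 0.02 in all features. Other classes leaned the same way: Copia fragments had a median of -0.08, with 58 higher and 74 lower of 2147 at an unadjusted p under 0.05, and repeat regions had a median of -0.09, with 71 higher and 169 lower of 4473. TRIM fragments had a median of 0.01, with 17 higher and 41 lower of 946. Under TMM scaling, 352 members were lower with SKI3 RNAi without overlap between the groups (8.87%, background 5.61%). With SKI3 RNAi higher there were 236 (5.95%, background 7.3%). Scaling by total counts alone moved the median of all features to 0.12 and that of members to 0.05, and it divided the members at an unadjusted p under 0.05 into 167 higher and 167 lower. The members' median was below the median of all features under both scalings. Without GUS RNAi replicate 3, 105 members were higher and 124 were lower, of 4341 tested. The lower ones numbered 162 of 4487 when SKI3 RNAi replicate 2 was left out, and 438 of 4668 when replicate 3 of that group was. Shares of all features at that p are not given for total scaling or for these runs. The counts therefore show only how the number of members moved.

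Most of this tilt lay in RLG_family fragments. Of 1478 that were tested, 65.0% had a log2 fold change below 0, the median was -0.16, and at an unadjusted p under 0.05, 157 were lower (10.6%, background 3.01%) and 24 higher (1.62%, background 3.57%). Of 908 RLG_singleton_family fragments 53.4% were below 0, with 34 lower (3.74%) and 26 higher (2.86%) at that p. Of 587 RLX_family fragments 49.2% were below 0, with 34 lower (5.79%) and 25 higher (4.26%). RLX_family582 alone supplied 27 of the 34 lower RLX_family fragments. RLX_singleton_family fragments had 43.7% of 995 below 0 and a median of 0.06, and their 24 lower (2.41%) and 29 higher (2.91%) at that p were both under the background. The difference between the kinds was not tested beyond the shares given above.

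The fold change went with the level of the fragment. Among 1356 tested members with a mean of at most 5 CPM over all 6 libraries, 54.1% had a log2 fold change below 0, and between 5 and 10 CPM 46.6% of 1598 did. Between 10 and 20 CPM 58.8% of 633 were below 0, and between 20 and 50 CPM 79.1% of 278 were. Above 50 CPM, 101 of 103 were below 0, with a median of -0.48. These ranges of level were chosen after the values were seen, and the order was not particular to the members. Of all features above 50 CPM, 81.6% of 1847 were below 0, with a median of -0.21. Copia fragments had a larger share below 0 than the members at 5 to 10 CPM (58.2% of 912), at 10 to 20 CPM (61.6% of 388) and at 20 to 50 CPM (85.4% of 144), and a smaller one above 50 CPM (88.9% of 18).

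**Figure D2:**
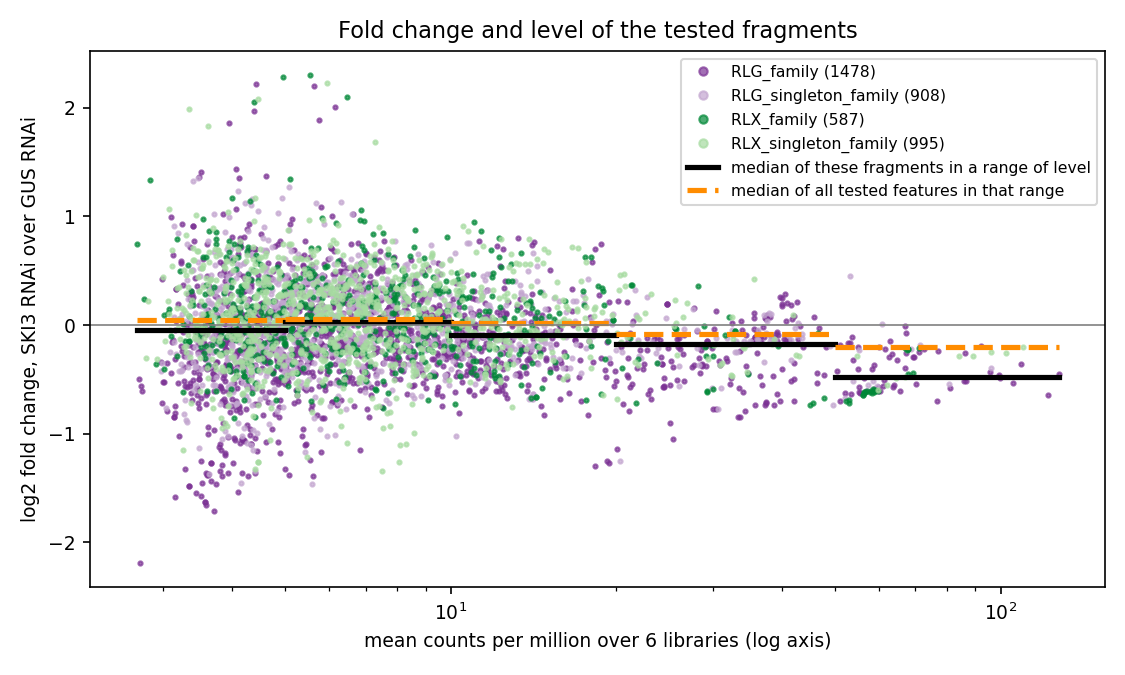
Log2 fold change of SKI3 RNAi over GUS RNAi (y axis) against mean CPM over 6 libraries (x axis, log) for the 3968 tested members, coloured by kind of ID, with the median of members (black) and of all tested features (orange, dashed) in each range of level. Above 50 CPM the members' median is -0.48 and that of all features -0.21, and the tight green group below 60 CPM is RLX_family582.

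The 103 fragments above 50 CPM came from 52 families, and 56 of them were RLG_family, 24 RLX_family, 13 RLG_singleton_family and 10 RLX_singleton_family. None of the 103 shared its 6 counts with another member. At an unadjusted p under 0.05, 56 (54.4%) were lower and 0 higher, where 14.5% of all features above 50 CPM were lower. Under TMM scaling, every SKI3 RNAi library lay below every GUS RNAi library in 60 of the 103, and the reverse was seen in 0. That is 58.3% of these members, where 24.3% of all features above 50 CPM were lower without overlap. Together these fragments took 9.57%, 8.59% and 11.8% of the members' counts with SKI3 RNAi, against 12.6%, 11.9% and 13.2% with GUS RNAi, without overlap (exact permutation p = 0.1). With the limit at 20 CPM in place of 50, the shares of 381 fragments were 22.9%, 20.6% and 27.0% with SKI3 RNAi and 27.5%, 26.2% and 28.5% with GUS RNAi, which overlapped (exact permutation p = 0.2). The shares of the 10 highest and of the 1000 highest members also overlapped. Replicate 3 with SKI3 RNAi stood nearest to the GUS RNAi libraries.

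How many of the 103 fragments were lower at that p depended on single libraries, while the sign hardly did. Leaving out each library in turn left between 99 and 102 of them below 0. The number lower at an unadjusted p under 0.05 was 23 without SKI3 RNAi replicate 1, 21 without replicate 2 and 85 without replicate 3. It was 17 without GUS RNAi replicate 1, 45 without replicate 2 and 9 without replicate 3. The share of all features above 50 CPM that were lower at that p moved alongside, at 5.31%, 5.63% and 24.1% without SKI3 RNAi replicates 1, 2 and 3, and at 4.17%, 10.9% and 2.60% without GUS RNAi replicates 1, 2 and 3. RLX_family582 supplied 17 of the 103, and without it 84 of 86 were below 0, with a median of -0.40.

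The fragment with most small RNA was an RLG_family12 fragment on chromosome 6, number 15143, with 104, 104 and 127 CPM with SKI3 RNAi, against 138, 146 and 145 CPM with GUS RNAi. All SKI3 RNAi values lay below all GUS RNAi values, and the log2 fold change was -0.45 (SE 0.181, adjusted p = 0.744 in edgeR's quasi-likelihood test). An RLG_family581 fragment on chromosome 3, number 8229, had 80.7, 86.1 and 101 CPM with SKI3 RNAi, against 113, 126 and 125 CPM with GUS RNAi. An RLG_family848 fragment on chromosome 2, number 15332, had 79.6, 81.8 and 98.8 CPM with SKI3 RNAi and 111, 113 and 112 CPM with GUS RNAi. Both were lower without overlap, at log2 fold changes of -0.54 (SE 0.182) and -0.46 (SE 0.181), each with an adjusted p of 0.744 in edgeR.

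Of the 10 highest fragments, 4 were lower without overlap in CPM, which is scaled by total counts. The other 6 overlapped, and none was higher. Among all features above 50 CPM, 24.3% were lower without overlap and 2.98% higher under TMM scaling. The scalings differ, so these shares are not a like background for the 4 of 10. Besides the 3 fragments named above, the non-overlapping one was an RLG_family222 fragment on chromosome 7, number 11878. It had 75.4, 87.3 and 96.5 CPM with SKI3 RNAi, against 121, 102 and 115 CPM with GUS RNAi. The RLG_family30 fragment on chromosome 6, number 12820, was widely spread, with 80.7, 77.9 and 138 CPM with SKI3 RNAi and 151, 116 and 169 CPM with GUS RNAi. Its log2 fold change of -0.65 had a SE of 0.280, and the groups overlapped through SKI3 RNAi replicate 3. The remaining 5 were 2 RLX_singleton_family196 fragments and 1 each of RLG_family11, RLX_singleton_family228 and RLG_singleton_family43. Their log2 fold changes ran from -0.40 to -0.21, and their groups overlapped in CPM.

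The fragments with the smallest p were far less abundant. On an unplaced sequence, RLG_family850 fragment 59 had 20, 12 and 17 counts with SKI3 RNAi, against 4, 5 and 6 with GUS RNAi (7.01, 5.16 and 6.51 CPM against 1.01, 2.31 and 1.72 CPM). Its log2 fold change was 1.86 (SE 0.387), and its p was the smallest among members that were higher. Both other higher fragments named by the rule were of RLG_family678 on chromosome 7: number 10218 had 21, 13 and 19 counts with SKI3 RNAi and 9, 7 and 7 with GUS RNAi, and number 26927 had 22, 16 and 25 with SKI3 RNAi and 14, 8 and 12 with GUS RNAi. In all 3 the SKI3 RNAi libraries lay above the GUS RNAi libraries in CPM, and each had an adjusted p of 0.744 in edgeR.

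On the lower side, an RLG_family7 fragment on an unplaced sequence, number 253, had 25, 27 and 40 counts with SKI3 RNAi, against 99, 59 and 96 with GUS RNAi. An RLG_family300 fragment on chromosome 8, number 10478, had nearly the same profile, with 26, 25 and 41 counts with SKI3 RNAi and 99, 58 and 101 with GUS RNAi. These are fragments of different families, yet their log2 fold changes were -1.25 (SE 0.252) and -1.27 (SE 0.259). An RLG_family165 fragment on chromosome 5, number 15740, had 3, 2 and 3 counts with SKI3 RNAi, against 21, 8 and 15 with GUS RNAi, at a log2 fold change of -2.19 (SE 0.445). All 3 were without overlap and had an adjusted p of 0.744 in edgeR's test.

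**Figure D3:**
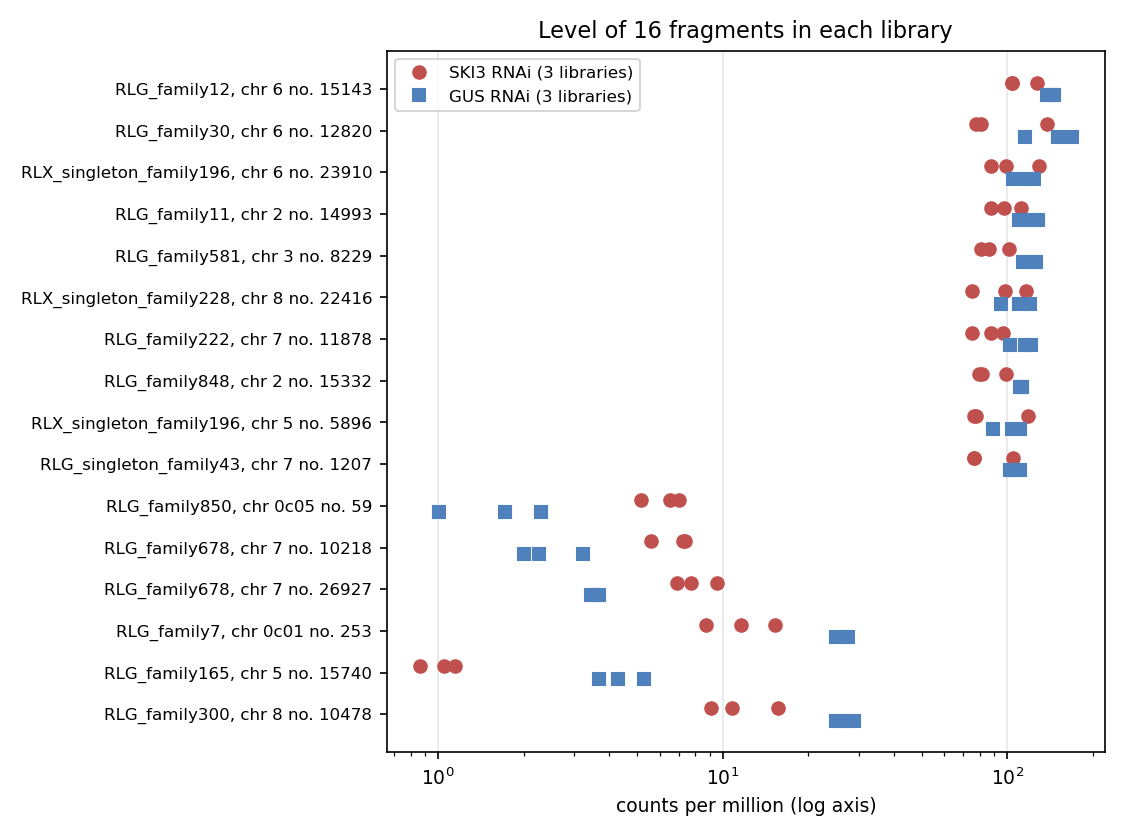
CPM (x axis, log) of 16 fragments in each library, with SKI3 RNAi as red circles above GUS RNAi as blue squares; the upper 10 are the highest members, then come 3 higher and 3 lower fragments with the smallest p. RLG_family12 fragment 15143 has 104 to 127 CPM with SKI3 RNAi and 138 to 146 CPM with GUS RNAi, and the 6 lower rows show groups that do not overlap.

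Summed over families, 1317 of 1834 families were tested in a table of 31776 features and families. None passed an adjusted p of 0.05 in edgeR's quasi-likelihood test (background 0%), and DESeq2 also called 0 of them. Without the filter on low counts edgeR called 9 of 1788 families (1 higher and 8 lower, background 0.227%), and without SKI3 RNAi replicate 1 it called 1, where the background was 1.2%. At an unadjusted p under 0.05, 32 families were higher (2.43%, background 3.88%) and 70 were lower (5.32%, background 2.76%). Of the 70 lower families 47 were RLG_family (of 469 tested), 21 RLG_singleton_family (of 369), 1 RLX_family (of 129) and 1 RLX_singleton_family (of 350). Of the 32 higher ones 4 were RLG_family, 9 RLG_singleton_family, 5 RLX_family and 14 RLX_singleton_family. With scaling by total counts alone 71 of the 1317 families were higher and 40 lower. The lower families numbered 125 of 1358 when SKI3 RNAi replicate 3 was left out, and 33 of 1333 when GUS RNAi replicate 3 was. Background shares are not given for these 3 runs. The 8 highest families held 11.3% of the members' counts, and 156 families held 50%.

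The highest family was RLX_family582, which had 59 fragments on 8 chromosomes. All refer to 1 element of 14771 bp at chr4:36130552-36145322 in the coordinates of the IDs, which follow the MtrunA17 naming (the release is not given in the sources used here). The family summed to 1317, 997 and 1550 CPM with SKI3 RNAi, against 1767, 1799 and 1701 CPM with GUS RNAi. SKI3 RNAi was lower without overlap, at a log2 fold change of -0.53 (SE 0.201, adjusted p = 0.738 in edgeR), and the 3 SKI3 RNAi libraries differed more from each other than the GUS RNAi libraries did. No fragment dominated it, since the highest held 3.93% of the family and the highest 5 held 19.4%.

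Within RLX_family582 the change went with the level as in the whole set. The fragments had a median of 17.6 CPM and a highest value of 59.8 CPM, and 17 were above 50 CPM. All 17 had a log2 fold change below 0 and an unadjusted p under 0.05, where 14.5% of all features above 50 CPM were lower at that p. Of the 49 tested fragments 36 were below 0, 27 of them at that p (background 3.01%), and the lowest and highest log2 fold changes were -0.74 and 0.48. Chromosome 4 carried 16 of the 59 fragments and 34.8% of the family's small RNA. The fragments derive from 1 reference element, and how reads with several alignments were counted is not stated, so the 17 fragments are not 17 independent measurements.

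RLG_family667 was alike in structure, with 44 fragments on 8 chromosomes and 1 reference element of 8788 bp at chr7:5366719-5375506. It summed to 575, 567 and 636 CPM with SKI3 RNAi, against 848, 720 and 882 CPM with GUS RNAi, without overlap. The log2 fold change was -0.57 (SE 0.169, adjusted p = 0.738 in edgeR). Of its 22 tested fragments 21 were below 0, 12 of them at an unadjusted p under 0.05 (background 3.01%), and its 5 highest fragments held 45.4% of the family. Chromosome 4 held 42.4% of its small RNA.

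The next families had many reference elements. RLG_family11, with 305 fragments from 19 elements, summed to 1220, 1291 and 1383 CPM with SKI3 RNAi, against 1453, 1646 and 1535 CPM with GUS RNAi, lower without overlap at a log2 fold change of -0.35 (SE 0.145, adjusted p = 0.738 in edgeR). RLG_family12, with 94 fragments from 17 elements, summed to 559, 595 and 671 CPM with SKI3 RNAi and 709, 685 and 729 CPM with GUS RNAi, also without overlap (log2 fold change -0.32, SE 0.157). In RLG_family12 the highest 5 fragments held 57.9% of the level, against 27.9% in RLG_family11.

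The other 4 of the 8 highest families overlapped between the groups in CPM. Over all 1317 tested families of members, at any level, 8.2% were lower and 6% higher without overlap under TMM scaling. The share over all 31776 features and families is not given here. Whether the 8 highest families stand out from features of like level was therefore not tested. RLG_family0, with 451 fragments from 37 elements, had 1003, 981 and 851 CPM with SKI3 RNAi and 973, 967 and 952 CPM with GUS RNAi (log2 fold change -0.14, SE 0.130). RLG_family7, with 166 fragments, had 528, 534 and 635 CPM with SKI3 RNAi and 642, 666 and 627 CPM with GUS RNAi (log2 fold change -0.28, SE 0.156). RLG_family19 had 689, 683 and 535 CPM with SKI3 RNAi and 589, 609 and 455 CPM with GUS RNAi (log2 fold change 0.10, SE 0.147). It was the most local of the 8, since chromosome 6 held 61.9% of its small RNA. RLX_family0, the largest family with 506 fragments, had 531, 623 and 503 CPM with SKI3 RNAi and 520, 531 and 434 CPM with GUS RNAi (log2 fold change 0.05, SE 0.135). The sign for RLG_family19 and RLX_family0 was not stable: it turned without GUS RNAi replicate 3 in both.

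**Figure D4:**
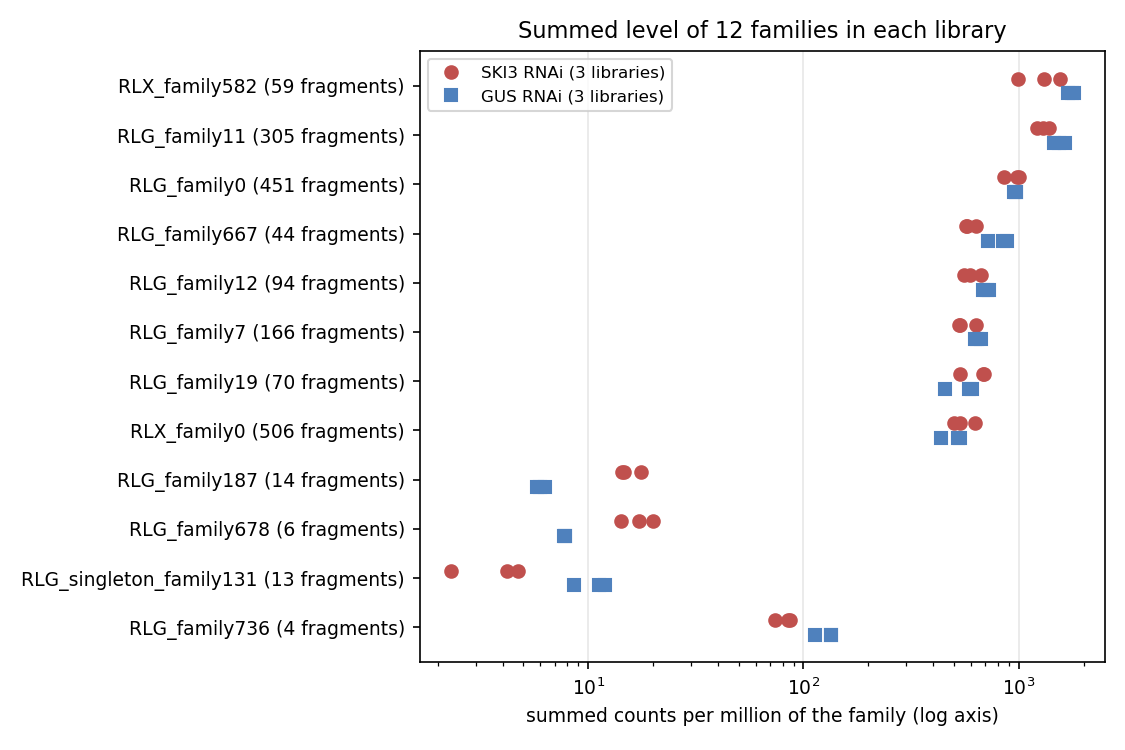
Summed CPM (x axis, log) of 12 families in each library, with SKI3 RNAi as red circles above GUS RNAi as blue squares; the 8 highest families come first, followed by 2 higher and 2 lower families with the smallest p. RLX_family582 has 997 to 1550 CPM with SKI3 RNAi and 1701 to 1799 CPM with GUS RNAi, whereas RLG_family0, RLG_family19 and RLX_family0 overlap.

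Among less abundant families, the rule named 2 in each direction by the smallest p. RLG_family187, with 14 fragments from 2 elements that lie at chr5:37567782-37583792 and chr5:38192926-38208907, had 14.4, 14.6 and 17.6 CPM with SKI3 RNAi, against 5.79, 5.995 and 6.31 CPM with GUS RNAi. RLG_family678, with 6 fragments of 1 element at chr6:31983487-31992145, had 17.2, 14.2 and 19.9 CPM with SKI3 RNAi, against 7.80, 7.84 and 7.74 CPM with GUS RNAi. Both were above the GUS RNAi libraries in every SKI3 RNAi library, at log2 fold changes of 1.26 (SE 0.237) and 1.03 (SE 0.241), and 83.8% of the small RNA of RLG_family678 came from chromosome 7.

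On the lower side, RLG_family736 had 4 fragments of 1 element of 15937 bp at chr2:28870902-28886838. It had 74.0, 86.5 and 85.0 CPM with SKI3 RNAi, against 113, 134 and 134 CPM with GUS RNAi, at a log2 fold change of -0.74 (SE 0.160). Its 3 tested fragments had nearly equal log2 fold changes, from -0.77 to -0.70. RLG_singleton_family131, of 13 fragments from an element at chr3:8841297-8856247, had 4.21, 4.73 and 2.297 CPM with SKI3 RNAi, against 8.56, 11.99 and 11.2 CPM with GUS RNAi (log2 fold change -1.59, SE 0.304), and none of its fragments was tested singly. All 4 of these families had an adjusted p of 0.738 in edgeR's test.

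Members were found on all 8 chromosomes, and 648 were on unplaced sequences. Chromosome 4 had the most fragments, 6609, and the highest sum, with 9367, 10072 and 9722 CPM with SKI3 RNAi and 9491, 10064 and 9330 CPM with GUS RNAi. Chromosome 5 had the fewest of the 8, 4247, with 5412, 5846 and 5488 CPM with SKI3 RNAi and 5503, 5838 and 5255 CPM with GUS RNAi. Per fragment the chromosomes differed little, from 1.21 CPM on chromosome 1 to 1.46 CPM on chromosome 4, whereas unplaced fragments had 0.815 CPM. With scaling by total counts, SKI3 RNAi and GUS RNAi differed beyond the spread of the libraries in none of the 9 groups: log2 ratios ran from -0.11 for unplaced fragments to 0.05 for chromosome 1, and exact permutation p-values from 0.4 to 1, each adjusted to 1. With TMM scaling all 9 ratios were below 0, and chromosomes 1, 3, 5, 7 and 8 reached an exact permutation p of 0.1, the smallest possible, at log2 ratios from -0.11 to -0.04 (adjusted over 9 groups 0.18). Organelle sequences carried 8 member fragments, with 27, 20 and 19 counts with SKI3 RNAi and 25, 15 and 17 with GUS RNAi.

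The running numbers of the fragments give at most a coarse position. They cover all transposable element fragments of a chromosome without gaps and follow the coordinates only in part. Of the elements with a single fragment, the longest run in the order of their coordinates held between 50.6% on chromosome 3 and 73.5% on chromosome 6. Each chromosome was divided into 10 equal stretches of the numbering, here called bins. Members made up 18.8% of all transposable element fragments in bin 1, 25.1% in bin 5 and 16.4% in bin 10. Copia fragments also peaked in bin 5, at 10.8%, against 8.61% in bin 1 and 7.35% in bin 10. Terminal inverted repeat elements, which are DNA transposons, had their lowest share there, 37.8%, against 45.4% in bin 1 and 49.1% in bin 10.

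Small RNA per fragment was highest in the same middle stretch. It was 1.32 ± 0.0431 CPM with SKI3 RNAi and 1.2995 ± 0.0667 CPM with GUS RNAi in bin 1 (SD, n = 3 each). In bin 5 it was 1.67 ± 0.0391 CPM with SKI3 RNAi and 1.75 ± 0.0689 CPM with GUS RNAi, and in bin 10 it was 1.31 ± 0.0786 CPM with SKI3 RNAi and 1.23 ± 0.0684 CPM with GUS RNAi. The groups overlapped in every bin, while bin 5 exceeded the ends by more than the spread of the libraries in both. The middle was rich in RLG_family fragments, which were 42.7% of members in bin 5, against 16.7% in bin 1 and 10.2% in bin 10. Their level per fragment peaked there too, at 2.64 CPM, against 1.82 CPM in bin 1 and 1.54 CPM in bin 10. Taken by chromosome, the members' peak lay in bin 6 on chromosome 2, in bin 7 on chromosome 5 and in bin 4 or 5 elsewhere. Copia fragments and helitrons also had their highest level in the middle. Copia fragments had 1.74 CPM in bin 5, against 1.22 CPM in bin 1 and 1.36 CPM in bin 10. Helitrons had 1.97 CPM in bin 4 and 1.93 CPM in bin 5, against 1.64 CPM in bin 1 and 1.73 CPM in bin 10. Terminal inverted repeat elements had no such peak, with 1.36, 1.47, 1.43 and 1.47 CPM in bins 1, 4, 5 and 10. The fragments above 50 CPM were most numerous in bins 4 and 5, with 19 and 18, against 9 in bin 1 and 6 in bin 10. Every bin held some, at least 4, and members numbered 5443 in bin 4, 5477 in bin 5, 4103 in bin 1 and 3563 in bin 10. These profiles are descriptions and were not tested.

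**Figure D5:**
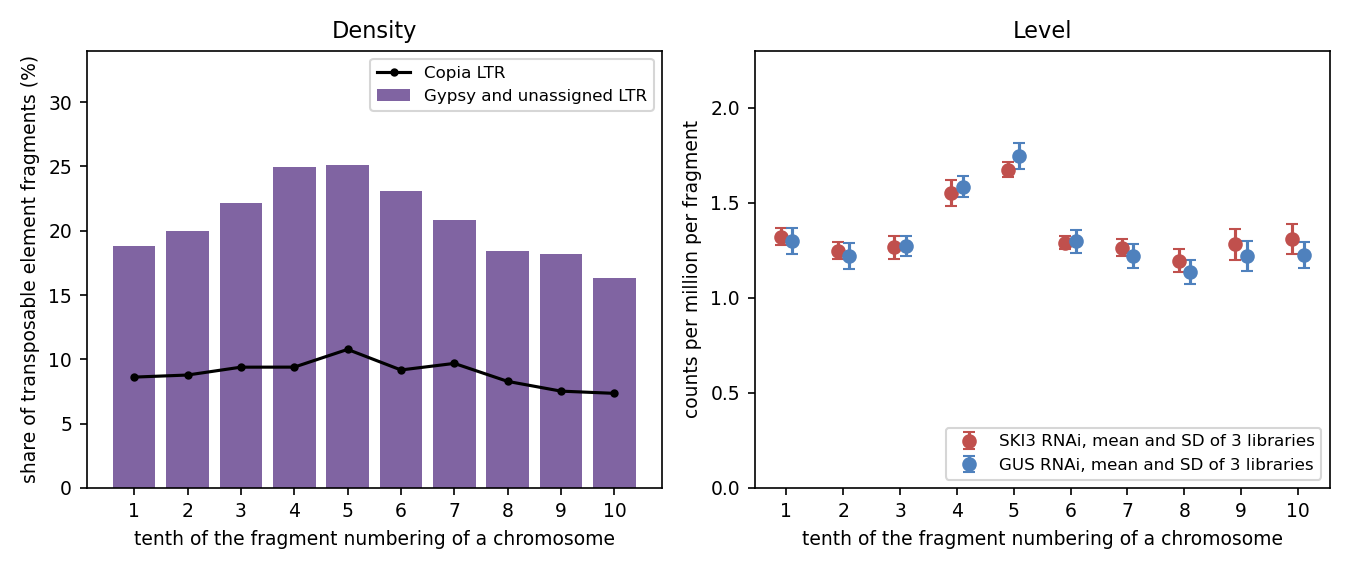
Left, share of all transposable element fragments (y axis, percent) that are members (bars) or Copia fragments (line) in 10 bins of the fragment numbering, pooled over 8 chromosomes; right, CPM per member fragment (y axis) in the same bins, as mean and SD of 3 libraries. Density and level both peak in the middle, at 25.1% and at 1.67 CPM with SKI3 RNAi and 1.75 CPM with GUS RNAi in bin 5.

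A few fragments owed their values to 1 library. Without SKI3 RNAi replicate 1, edgeR's quasi-likelihood test called 7 of 4259 tested members (0.164%) at an adjusted p under 0.05, all lower. Of all 50549 features, 0.959% were called lower and 0.0138% higher, so the members' share was below that of all features. In each of the 7, SKI3 RNAi replicate 1 stood far above the other SKI3 RNAi libraries. RLG_family144 fragment 4195 on chromosome 6 had 61, 0 and 0 counts with SKI3 RNAi, against 32, 17 and 34 with GUS RNAi. RLG_singleton_family301 fragment 14276 on chromosome 5 had 320, 26 and 13 counts with SKI3 RNAi, against 168, 83 and 163 with GUS RNAi. RLG_family182 supplied 3 of the 7, on chromosomes 1, 4 and 8. With all 6 libraries the adjusted p of these 7 fragments in edgeR was between 0.955 and 0.989.

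The largest fold changes showed profiles shared between families. Of the 3968 tested members 15 had a log2 fold change above 1.6 and 5 had one below -1.6, a threshold set after the values were seen, where 158 and 31 of all 48283 tested features did. The 15 higher fragments came from 14 families and summed to 341, 427 and 186 counts with SKI3 RNAi, against 36, 58 and 166 with GUS RNAi. In 10 of the 15, from 10 families on 6 chromosomes, every SKI3 RNAi library and GUS RNAi replicate 3 had at least 10 counts, while GUS RNAi replicates 1 and 2 had at most 3. These 10 summed to 56.5, 126 and 63.2 CPM with SKI3 RNAi, against 3.27, 3.23 and 43.3 CPM with GUS RNAi. The profile of these 10 was shown by 93 of all tested features (0.193%) and by 0.252% of tested members. In the other 5 of the 15, GUS RNAi replicate 3 had between 0 and 6 counts. Of those 5, 3 fragments of RLX_family269, RLG_family78 and RLX_singleton_family0 had 0 counts in SKI3 RNAi replicate 3 and between 24 and 47 in SKI3 RNAi replicates 1 and 2. Of the 5 lower fragments, 4 were of RLG_family24 on chromosomes 3, 4 and 7, and each had 4, 0 and 10 counts with SKI3 RNAi, against 16 or 17, 13 or 14, and 19 or 22 with GUS RNAi. None of the 20 fragments passed an adjusted p of 0.05 in edgeR's quasi-likelihood test.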

How the data were processed

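Small RNA from 6 root libraries was sequenced after Trizol extraction and adaptor ligation with the NEBNext small RNA kit, per the labels' protocols. The authors deposited raw whole-number counts per annotated feature, without normalization. The submitters' processing notes name cutadapt 2.10, Bowtie 1.3.1 and DESeq2 1.34.0. How multiply aligned reads were counted, and whether strand was used, is not given in the sources used here. In SKI3 RNAi replicate 3 a stray header line among the features names read lengths of 21 to 22 nt; it was removed. The other tables state no length.

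Groups came from the sample titles. Members were chosen by ID prefix, and members and lists were chosen with earlier results of these data known. CPM are counts per 1000000 counts of a table. Single features, and families of fragments summed by prefix and number, were tested over the whole table with edgeR 4.0.16 in R 4.3.3 (TMM scaling, filterByExpr with a minimum count of 10, quasi-likelihood test, group as the only term, Benjamini-Hochberg adjustment). Standard errors (SE) are the size of the log2 fold change over the root of F. DESeq2 1.42.0 was an alternative. Sums and shares were compared with two-sided exact permutation tests over libraries in scipy 1.17.1. The floor of 3 counts covers counting error only. The fitting steps were tested on counts simulated with the same spread for all features, with no change or with changes larger than nearly all described here. That test does not show whether smaller changes could be called.

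The text names the 10 fragments of highest mean CPM and, since none passed the adjusted p, the 3 with the smallest p in each direction, taking 1 of any set with the same 6 counts. It also names the 8 highest families and the 2 with the smallest p in each direction. Other fragments named were chosen after their values were seen.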

Additional observations from a re-analysis of the deposited data

How the results depend on the processing

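The direction of summed levels depended on the scaling. When the 10 most counted features were left out of the totals, the log2 ratio of SKI3 RNAi over GUS RNAi turned to -0.0727 for all members, and to -0.0317, -0.0788, -0.0793, -0.0706, -0.0711, -0.0584 and -0.0821 for chromosomes 1, 2, 3, 4, 5, 6 and 7. With TMM-scaled library sizes it turned to -0.0835 for all members, -0.00909 for RLX, and -0.0427, -0.0894, -0.0901, -0.0813, -0.082, -0.0691 and -0.0929 for those chromosomes. With members of the same 6 counts summed once, chromosomes 2 and 7 turned to -0.00386 and -0.00436. Leaving out each library in turn gave -0.0192 to 0.051 for all members, -0.0274 to 0.057 for chromosome 2, -0.0318 to 0.0477 for chromosome 3, -0.0127 to 0.0466 for chromosome 4, -0.0228 to 0.0534 for chromosome 5, -0.0266 to 0.0352 for chromosome 7 and -0.0407 to 0.0226 for chromosome 8. The RLG_family share stayed lower with SKI3 RNAi without each library in turn, the difference running from -3.29 to -2.08 percentage points.

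Fragments past the adjusted p numbered 0 to 7 and families 0 to 1 without each library in turn. The calls arose without SKI3 RNAi replicate 1, where 0.164% of member fragments were called lower, against 0.959% of all features. For families the share called was 0.075%, against a background of 1.2%. Without the filter on low counts edgeR called 38 of 35304 fragments (25 higher and 13 lower, background 0.109%) and 9 of 1788 families (1 higher and 8 lower, background 0.227%). Among the called were RLG_family850 fragment 59, RLG_family7 fragment 253, RLG_family165 fragment 15740, RLG_family300 fragment 10478 and RLG_singleton_family131, at adjusted p-values in edgeR of 0.0496, 0.00487, 0.0132, 0.00352 and 0.00684. At an unadjusted p under 0.05, fragments higher and lower numbered 669 and 1051 without the filter, and 277 and 503 of 11570 with a filter of 1 CPM in 3 libraries. Without each library in turn, 97 to 143 were higher and 124 to 438 lower. For families the lower ones numbered 33 to 125, and 119 without the filter, and DESeq2 gave 17 higher. Shares of all features at that unadjusted p are not given for these alternative runs. The medians of fragments and of families stayed below those of all features under each alternative run, with differences of -0.0985 to -0.0468 for fragments. Without each library in turn the log2 fold change of RLG_family19 ran from -7.46e-05 to 0.154, the lowest without GUS RNAi replicate 3. That of RLX_family0 ran from -0.0127 to 0.0843, at -0.0127 when GUS RNAi replicate 3 was left out and -0.00286 when SKI3 RNAi replicate 2 was, and it was -0.00631 without the filter.

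Replicate numbers are shared between the groups, but nothing in the labels ties them to plants or days, so they were not taken as a pairing. Same-numbered libraries deviated together with correlations of 0.0712, 0.191 and 0.251 over tested features. Values for differently numbered libraries are not given here, so these correlations cannot decide whether the libraries were paired. A replicate block gave 0 fragments and 0 families past the adjusted p. At an unadjusted p under 0.05 it gave 125 of 3968 fragments higher and 289 lower, without a background share given here. Depth limits these results: the median member had 4 counts over 6 libraries, and 91.4% of members were not tested.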
